A study of Homo sapiens with 6 samples.

Results

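The miR-26 family comprises 2 closely related miRNAs, miR-26a and miR-26b, which are cut from 3 stem-loops lying in introns of the CTDSP phosphatase genes. The family was followed here in MDA-MB-231, an estrogen-independent human breast adenocarcinoma cell line of the triple-negative type, grown either as spheroid in suspension without serum (3D, 3 samples) or as parental monolayer in RPMI-1640 with 10% serum (2D, 3 samples). Spheroid cells served in the study as a culture enriched in cells with cancer stem cell properties. Attachment and serum differed together between the conditions and cannot be told apart. Members were all rows of the 2 small RNA count tables that carry the stem-loop mir-26a or mir-26b, with or without a copy number, in their name. This rule gave 5 mature sequences of 437 listed over both tables, and each of the 5 had reads in both.

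Each condition is represented by 1 count table, which gives the raw count of sequencing reads for each mature miRNA. Reads of its length and sequence variants are included in that count. The spheroid table held 1553014 reads on 424 sequences and the parental table held 539798 reads on 367 sequences. The tables hold no column per sample. The labels tie all 3 samples of a condition to its table, and it is not given whether their reads were combined; the study's read summary lists a single index tag per condition. There is therefore no replicate error, and the 95% intervals below cover counting error only. They are exact binomial (Clopper-Pearson) for levels, shares and folds. Those of a ratio of ratios (spheroid ratio over parental ratio) are exact conditional intervals of an odds ratio. Reads amplified by PCR without molecular identifiers are not independent molecules. For the label check, 5 sequences of the miR-200 family, which is known to be scarce in mesenchymal-like lines such as MDA-MB-231, summed to 172 reads or 111 reads per 1000000 of the table total (rpm) in spheroid and 38 reads or 70.4 rpm in parental cells. The basal-type miRNAs miR-221 and miR-222 summed to 15020.5 rpm in spheroid and 15324 rpm in parental cells. Both cultures are of the same line, so this check bears on the cell line and cannot tell the spheroid label from the parental label.

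In human cells, miR-26a and miR-26b act mainly through the strand from the 5p arm of the stem-loop, whose seed (bases 2 to 8) pairs with target messenger RNAs, while the 3p strand is mostly discarded. Known targets include EZH2, the methyltransferase of Polycomb complex 2, and HMGA2, a chromatin protein of growing cells. The host genes encode small phosphatases that act on RNA polymerase II and on the retinoblastoma protein, and miR-26 and its hosts are known to restrain the entry into S phase together. MYC is known to repress the family in B-cell tumours.

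The 3 stem-loops are shown because they decide what the reads can tell about each gene. They were read from GRCh37 at the positions of the GENCODE annotation, 5′ to 3′ on the strand of the gene, with both mature sequences of the count tables in capitals:

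mir-26a-1: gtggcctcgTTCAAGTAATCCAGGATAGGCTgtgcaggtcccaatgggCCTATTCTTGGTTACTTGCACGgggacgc

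mir-26a-2: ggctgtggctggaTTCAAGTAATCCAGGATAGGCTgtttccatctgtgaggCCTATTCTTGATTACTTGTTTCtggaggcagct

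mir-26b: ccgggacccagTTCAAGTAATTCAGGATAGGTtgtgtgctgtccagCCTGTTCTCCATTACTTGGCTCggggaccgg

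The stem-loop mir-26a-1 lies at chr3:38010895-38010971 on the plus strand, in intron 5 of 7 of the canonical transcript of CTDSPL. The stem-loop mir-26a-2 lies at chr12:58218392-58218475 on the minus strand, in intron 5 of 7 of CTDSP2. The stem-loop mir-26b lies at chr2:219267369-219267445 on the plus strand, in intron 4 of 6 of CTDSP1. In each case host and miRNA share the strand, and 0 annotated transcripts of the host have an exon over the stem-loop.

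The 5 mature sequences, as the count tables give them in DNA letters and with the seed in capitals, fall into 3 seed groups:

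miR-26a-5p: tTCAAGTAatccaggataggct

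miR-26b-5p: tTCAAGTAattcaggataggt

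miR-26a-1-3p: cCTATTCTtggttacttgcacg

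miR-26a-2-3p: cCTATTCTtgattacttgtttc

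miR-26b-3p: cCTGTTCTccattacttggctc

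The 5p arms of mir-26a-1 and mir-26a-2 are identical, so that miR-26a-5p is 1 sequence made by 2 genes. miR-26b-5p shares its seed and differs from miR-26a-5p over 21 compared positions by C11T and C21T (miR-26a-5p first, counted from 1 at the 5′ end), and it is listed at 21 nucleotides against 22. The 3p arms of the mir-26a pair share a seed and differ at 5 positions, which are G11A, C19T, A20T, C21T and G22C (miR-26a-1-3p first). miR-26b-3p has a seed of its own. All 5 names matched RefSeq (build GRCh38.p14), 4 with an equal sequence, while miR-26b-3p is listed there with 21 nucleotides, 1 fewer than in the tables. Of all 436 sequences that had any read, 2 carried the seed of miR-26a-5p, namely miR-26a-5p and miR-26b-5p, and their reads together made up 4.0% of the spheroid and 2.44% of the parental table.

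miR-26a-5p carried most reads of the family, with 93.8% of the 5p reads in spheroid and 88.6% in parental cells. It took a larger part of the spheroid than of the parental table, whereas miR-26b-5p stayed close to its parental part. miR-26a-5p had 58206 reads in spheroid and 11689 reads in parental cells. These counts correspond to 37479 rpm (interval 37181 to 37779) in spheroid and 21654 rpm (21268 to 22046) in parental cells, a fold of 1.73 (1.70 to 1.77), spheroid over parental. Its rank by abundance among all sequences was 5 in spheroid and 10 in parental cells.

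miR-26b-5p had 3847 reads or 2477 rpm (2400 to 2557) in spheroid and 1503 reads or 2784 rpm (2646 to 2929) in parental cells. Its fold was 0.890 (0.838 to 0.945), and its rank was 45 in spheroid and 46 in parental cells. Thus the 2 sequences with the same seed lay on opposite sides of 1 in fold, on the scale of the table totals.

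The 3p sequences, the strands that are usually degraded, were rare in both tables. miR-26a-1-3p had 25 reads (16.1 rpm) in spheroid and 6 reads (11.1 rpm) in parental cells, a fold of 1.45 (0.580 to 4.32). miR-26a-2-3p had 19 reads (12.2 rpm) in spheroid and 8 reads (14.8 rpm) in parental cells, a fold of 0.826 (0.345 to 2.18). miR-26b-3p had 30 reads (19.3 rpm) in spheroid and 6 reads (11.1 rpm) in parental cells, a fold of 1.74 (0.712 to 5.11). Every one of these 3 intervals includes 1, and no direction was detectable at this depth. A count of 0 would allow up to 3 reads, which is 1.93 rpm in the spheroid and 5.56 rpm in the parental table.

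**Figure D1:**
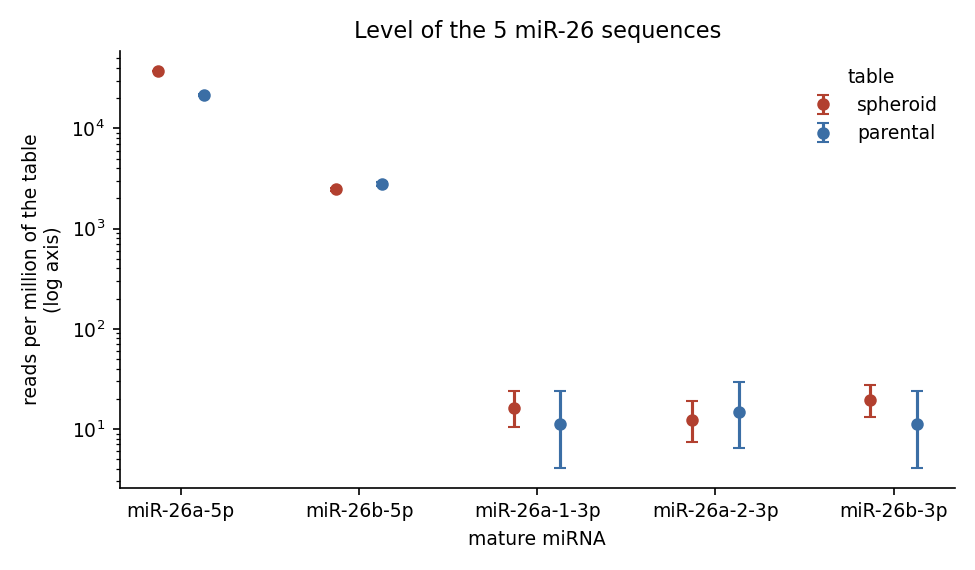
Level of each miR-26 sequence in reads per 1000000 of its table (rpm) (log axis), in the spheroid (red, left) and the parental table (blue, right); bars are exact binomial 95% intervals for counting error. miR-26a-5p stood at 37479 rpm in spheroid and 21654 rpm in parental cells, miR-26b-5p at 2477 and 2784 rpm, and the intervals of all 3p sequences overlap.

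The miRNAs were compared with Kal's Z-test on the reads of the 2 tables, with Benjamini-Hochberg adjustment over all 436 sequences. Calls required a fold over 2 in either direction together with an adjusted p below 0.05. The test compares these tables, not the culture conditions. Of the 5 miR-26 sequences, 0 were called higher and 0 were called lower in spheroid, where 4.82% of all sequences were called higher and 8.94% lower. By counting error alone, the miR-26a-5p difference was large (z = 55.7, with a p too small to be written), and that of miR-26b-5p was small but past the p threshold (z = -3.85, adjusted p = 4.27e-04 by Kal's Z-test); both stayed under the fold threshold. The adjusted p of the 3p sequences lay between 0.386 and 0.742. When cultures were assumed to vary by a coefficient of variation of 0.2 in edgeR's exact test, miR-26a-5p had an unadjusted p of 0.0553 and an adjusted p of 0.326, and at 0.4 its unadjusted p was 0.345. The actual variation between cultures was not measured in these tables.

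**Figure D2:**
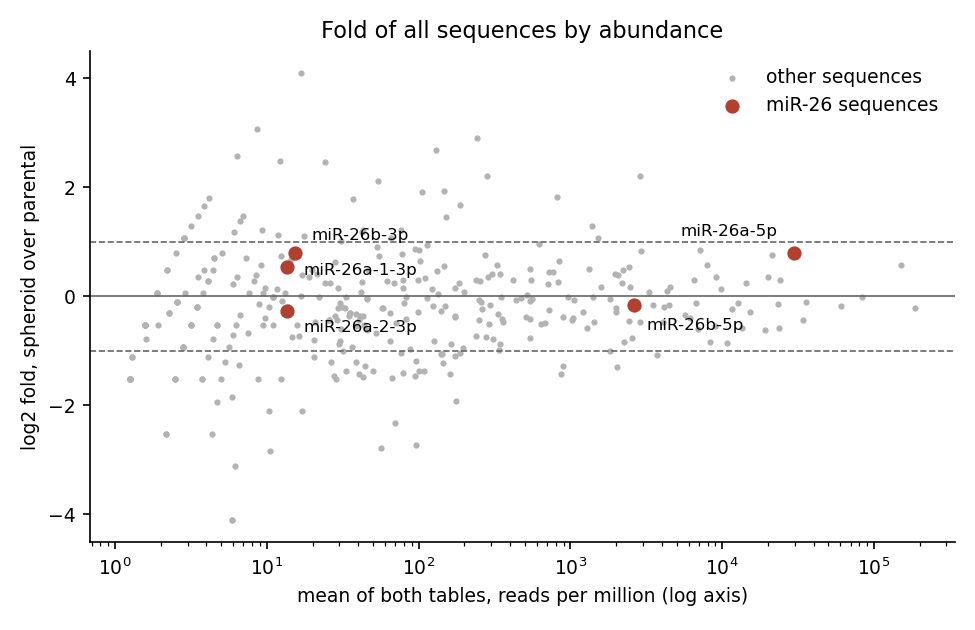
The log2 fold, spheroid over parental, against the mean level of both tables in rpm (log axis) for the 369 sequences with a fold (those with no reads in 1 table are bounds, set at 3 reads there), in which the 5 miR-26 sequences are red; dashed lines mark a fold of 2 in either direction. miR-26a-5p, at 1.73-fold, sits near the upper line among the most abundant sequences, and 0 of the 5 red points pass a dashed line.

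Among abundant miRNAs the fold of miR-26a-5p was near the top. Of 89 sequences with at least 1000 reads over both tables, 7 had a higher and 81 a lower fold, and the median fold was 0.921 (quartiles 0.735 and 1.23). Of 30 sequences with at least 10000 reads, miR-28-3p alone had a higher fold, 1.81 from 14355 spheroid and 2764 parental reads. Nearly all of these were variant reads, since 0.0348% in spheroid and 0% in parental cells equalled the listed miR-28-3p sequence. miR-26a-5p added 1.58 percentage points of the reads in spheroid, and among 436 sequences 1 gained more, the HOXB miRNA miR-10a-5p with 5.78 points (named after its value was seen). miR-26b-5p lay in the middle of the 89, with 50 higher and 38 lower folds.

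The fold of miR-26a-5p was most like those of mir-30d, miR-125a-5p and miR-28-3p among sequences with at least 1000 reads, by the absolute difference in log2 fold over the 2 tables. The more abundant of 2 sequences on mir-30d had 41313 spheroid and 8534 parental reads, a fold of 1.68 (1.64 to 1.72). miR-125a-5p had 5791 spheroid and 1128 parental reads, a fold of 1.78 (1.67 to 1.90). Reads equal to the listed sequence were 0.874% in spheroid and 0.879% in parental cells for this mir-30d sequence. For miR-125a-5p they were 67.3% in spheroid and 62.7% in parental cells. With 2 tables, likeness in fold is a single number per sequence and says nothing more about the sequences.

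The scale of the tables moved all folds alike. Relative to the table totals, log2 folds were 0.16 higher with TMM factors and 0.20 higher with median-of-ratios factors. The fold of miR-26a-5p was then 1.94 and 1.99, and 1.83 with totals that leave out the 5 most abundant sequences of each table. miR-26b-5p came to 0.996 with TMM and turned to 1.02 with median-of-ratios factors, so that its direction depended on the scale. Of the scales tried, the study's library totals alone brought miR-26a-5p past the fold threshold, to 3.83. By the study's read summary, the parental table holds only a small part of the parental reads placed on miRNA stem-loops, whereas the spheroid table holds nearly all of those of spheroid, so that this scale does not match what the tables count. How the parental reads were chosen is not given in the sources used here, and every fold and ratio of ratios in this report rests on them.

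**Figure D3:**
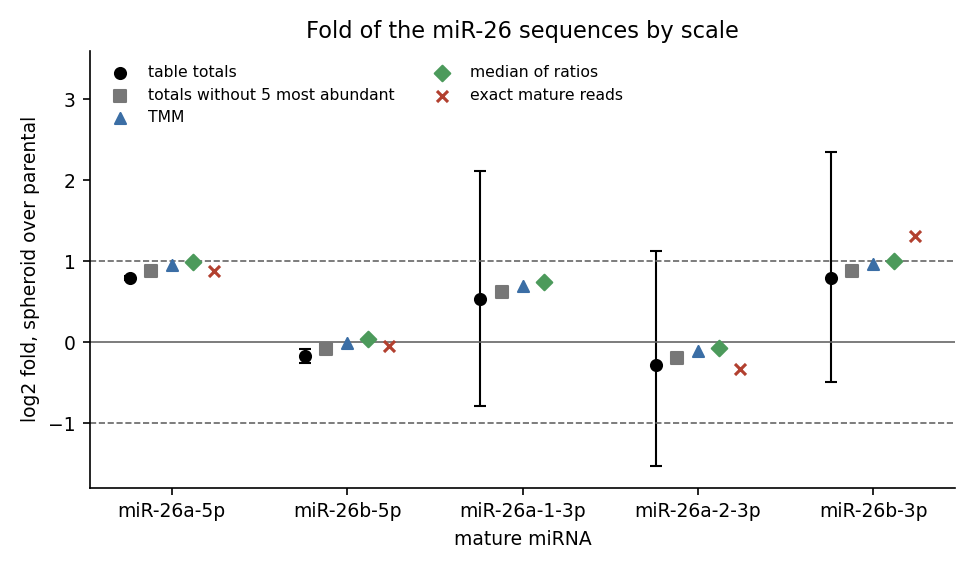
The log2 fold, spheroid over parental, of the 5 miR-26 sequences under 4 scales and from exact mature reads; bars on the black points are 95% counting intervals, dashed lines mark a fold of 2 and the study's library totals are not drawn. miR-26a-5p stays between 1.73- and 1.99-fold, miR-26b-5p lies around a fold of 1, and miR-26a-1-3p has no exact reads.

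The ratio between the 2 miR-26 sequences does not depend on the scale, and it nearly doubled. There were 15.1 reads of miR-26a-5p for each read of miR-26b-5p in spheroid and 7.78 in parental cells, a ratio of ratios of 1.95 (1.83 to 2.07). Accordingly miR-26b-5p made up 6.20% (6.01% to 6.39%) of the reads with this seed in spheroid and 11.4% (10.9% to 11.9%) in parental cells. By Fisher's exact test on the reads (two-sided, Benjamini-Hochberg over 4 comparisons of composition), the adjusted p was 2.52e-87. It too rests on counting error, with no variation between cultures.

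Within the stem-loops, no shift between the arms passed the test. For mir-26b, 0.774% (0.523% to 1.10%) of the reads of both arms came from the 3p arm in spheroid and 0.398% (0.146% to 0.863%) in parental cells (Fisher's exact test, adjusted p = 0.208). For both mir-26a stem-loops together, the 3p arms gave 0.0755% (0.0549% to 0.101%) in spheroid and 0.120% (0.0654% to 0.201%) in parental cells, again with an adjusted p of 0.208 by Fisher's exact test. The 3p part was thus higher in mir-26b than in mir-26a in either table, with intervals that do not overlap in spheroid and that overlap in parental cells.

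The 2 mir-26a genes could be told apart by their 3p arms alone. A read is counted as unique where it matches 1 stem-loop: over sequences named on 1 stem-loop 99.9% of spheroid and 99.8% of parental reads were unique, against 4.32% and 3.44% over those named on several. Of the miR-26a-5p reads, 1 was unique in spheroid and 1 in parental cells, while all reads of the other 4 members were unique in both tables. The unique share of 1.69% of 355 sequences differed between the tables by Fisher's exact test with adjustment, and that of 0 of the 5 members did. This outcome was set by the sequences and says nothing about the cultures. The other 4 members had unique reads alone, and the identical 5p arms left almost none to miR-26a-5p. mir-26a-1 supplied 25 of 44 mir-26a 3p reads in spheroid, or 56.8% (41.0% to 71.7%), and 6 of 14 in parental cells, or 42.9% (17.7% to 71.1%). The ratio of ratios was 1.75 with an interval of 0.442 to 7.21 (Fisher's exact test, adjusted p = 0.540), too wide to show a shift between the genes.

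The reads of miR-26a-5p and miR-26b-5p differed strongly in how often they equalled the annotated sequence, in both cultures. Exact reads were 86.0% (85.7% to 86.3%) of the miR-26a-5p reads in spheroid and 86.0% (85.4% to 86.6%) in parental cells. For miR-26b-5p they were 6.03% (5.30% to 6.83%) in spheroid and 5.92% (4.78% to 7.24%) in parental cells. Among 89 sequences with at least 1000 reads, whose median exact share was 36.7% in spheroid and 43.0% in parental cells, 5 had a higher exact share than miR-26a-5p in spheroid and 6 in parental cells. For miR-26b-5p, 16 in spheroid and 15 in parental cells had a lower one. The tables do not give the length or bases of the variant reads.

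In the 3p arms, miR-26a-1-3p had 0 exact among 25 spheroid reads, which allows a share of up to 12% by the limit of 3 reads and 13.7% by the exact binomial interval, and 0 among 6 parental reads. miR-26a-2-3p had 15 exact of 19 reads in spheroid and 7 of 8 in parental cells. miR-26b-3p had 20 of 30 in spheroid and 3 of 6 in parental cells. The exact share was tested by Fisher's exact test for all 355 sequences with a read in both tables. At an adjusted p under 0.05, 12.4% of them differed, and 0 of the 5 miR-26 sequences did (adjusted p of 1 for each). Beside that share, 0 of 5 does not set the family apart. With 6 to 8 parental reads each, the 3p sequences could have shown only a very large difference, and miR-26a-1-3p, without exact reads, none. The difference in exact share was -0.02 percentage points for miR-26a-5p and 0.11 for miR-26b-5p.

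**Figure D4:**
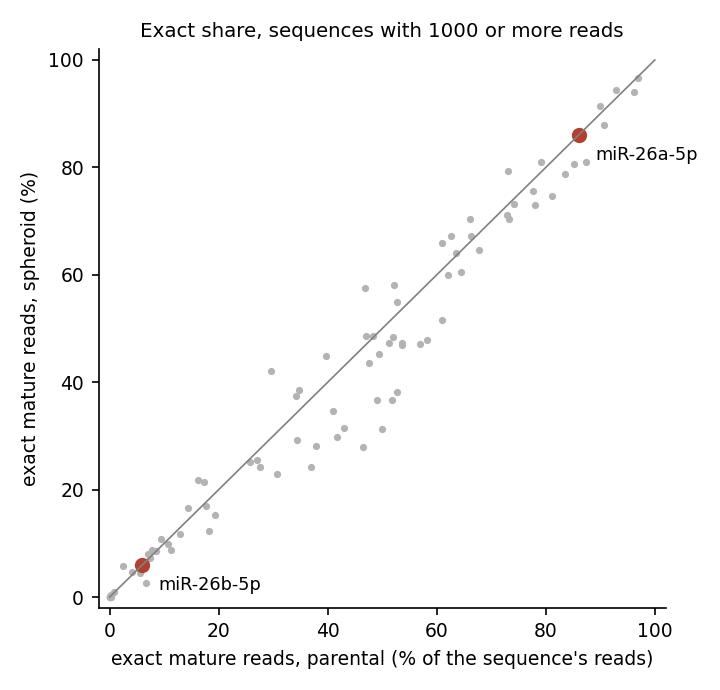
Share of reads equal to the annotated mature sequence, in percent of the reads of that sequence, in spheroid (vertical) against parental cells (horizontal) for the 89 sequences with at least 1000 reads; the line marks equal shares. miR-26a-5p lies at 86.0% on both axes and miR-26b-5p at 6.03% in spheroid and 5.92% in parental cells, both on the line.

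Counted by exact reads, miR-26a-5p ranked higher. It took 9.84% (9.76% to 9.92%) of the exact reads in spheroid, where its rank was 3, and 5.33% (5.23% to 5.43%) in parental cells, where its rank was 7, a fold of 1.85 (1.81 to 1.89). Exact reads of miR-26b-5p numbered 232 in spheroid and 89 in parental cells, a fold of 0.967 (0.754 to 1.25). The ratio of miR-26a-5p to miR-26b-5p was 216 in spheroid and 113 in parental cells by exact reads. The ratio of ratios, 1.91 (1.48 to 2.45), was thus close to that of all reads.

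Other miRNAs that MYC is known to repress in B-cell tumours, among them let-7, miR-15a, miR-16, miR-22, miR-29, miR-30 and miR-34a sequences, are described by counts alone. Of 43 measured sequences of this list, 0 were called higher and 3 lower, beside 4.82% higher and 8.94% lower over all sequences. Over the 38 with reads in both tables the median fold was 0.819, beside 0.869 over all 355 such sequences, and 0 of the 38 had a higher fold than miR-26a-5p, beside 47 of the 355. The lower ones were both arms of the p53-induced miR-34a, and let-7a-3p. miR-34a-5p had 736 spheroid and 686 parental reads, a fold of 0.373 (0.336 to 0.414). miR-34a-3p had only 23 reads in spheroid and 23 in parental cells, a fold of 0.348 (0.186 to 0.648). let-7a-3p had 190 spheroid and 136 parental reads, a fold of 0.486 (0.388 to 0.610). The list's most abundant members were miR-22-3p with a fold of 0.925 (0.910 to 0.940), let-7a-5p with 0.735 (0.723 to 0.747) and the mir-30d sequence given above. The level of MYC was not measured here.

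Other miRNA families also have paralogs in introns of paralogous host genes, and their ratios were set beside that of miR-26 as a description with no test. In the PANK genes, whose products start coenzyme A synthesis, the ratio of miR-103a-3p to miR-107 was 3.85 in spheroid (2779 and 722 reads) and 3.52 in parental cells (1178 and 335 reads), a ratio of ratios of 1.09 (0.942 to 1.27). Of the miR-107 reads, 601 in spheroid and 277 in parental cells were unique, and the others also matched another stem-loop, so that this interval may treat shared reads as separate. In the COPZ coat protein genes, the ratio of miR-148b-3p to miR-152-3p was 31.0 in spheroid and 21.7 in parental cells, 1.43 (1.12 to 1.81). In the sterol regulator genes SREBF2 and SREBF1, miR-33a-5p to miR-33b-5p was 0.316 in spheroid and 0.420 in parental cells, 0.752 (0.452 to 1.24). For the TRPM channel pair no ratio is given. miR-204-5p had 22 reads in spheroid and 53 in parental cells, of which 5 in spheroid and 52 in parental cells were unique, and miR-211-5p had 17 reads in spheroid and 1 in parental cells, of which 0 were unique in either table, so that its reads cannot be assigned to it. For miR-26 the same ratio of ratios was 1.95 (1.83 to 2.07), with all miR-26b-5p reads unique.

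**Figure D5:**
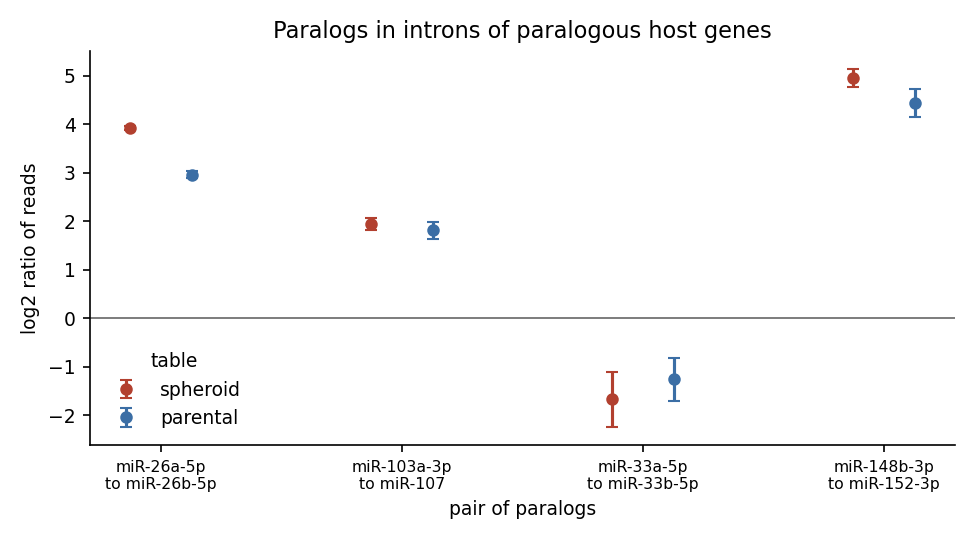
The log2 ratio of reads of the paralogs of 4 miRNA families in the spheroid (red, left) and the parental table (blue, right), with bars from exact binomial 95% intervals of the share. miR-26a-5p to miR-26b-5p stands at 15.1 in spheroid and 7.78 in parental cells, and the pair miR-204-5p and miR-211-5p is left out because 0 miR-211-5p reads were unique.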

How the data were processed

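Small RNA of MDA-MB-231 spheroid (3 samples) and parental cells (3 samples) was sequenced from TruSeq libraries. The authors trimmed the reads, kept lengths of 17 to 27 nucleotides and matched them to miRBase 19 and Ensembl GRCh37 release 57, working in CLC Genomics Workbench 7.0. The deposited values are read counts per mature sequence with no normalization, 1 table per condition, and 0 columns of values per sample.

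Tables were joined on the mature sequence. Counts were scaled to 1000000 reads of the table total. Kal's Z-test and the thresholds follow the study's methods. Shares and ratios were tested with Fisher's exact test (two-sided). Folds against a count of 0 use a floor of 3 reads. Positions are from GRCh37 with GENCODE release 44 mapped to that build. Python 3.11.15, numpy 2.4.6, pandas 2.3.3, scipy 1.17.1, matplotlib 3.10.9 and R 4.3.3 with edgeR 4.0.16 and DESeq2 1.42.0 (size factors) were used. The calls by Kal's Z-test, the fold intervals and Fisher's exact test of a share were tried on simulated counts without variation between cultures. The other steps were not simulated. Alternatives changed the scale, the reads counted, the test, the adjustment and the minimum of reads.

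Named were all members, sequences of the same seed, the 3 nearest to miR-26a-5p in fold, the called and the 3 most abundant MYC-list members and the leading paralog pairs; miR-10a-5p was named after its value was seen. Members and lists were chosen with earlier results of these data known.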

Additional observations from a re-analysis of the deposited data

How the results depend on the processing

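No paired analysis was possible because the tables hold no column per sample, and leaving out each replicate in turn was not run for the same reason. Of the 5 miR-26 sequences, 0 were called under every alternative except the study's library totals, which called 3 higher (miR-26a-5p at 3.83, miR-26a-1-3p at 3.20 and miR-26b-3p at 3.84) and turned miR-26b-5p to 1.97 and miR-26a-2-3p to 1.82. Over all sequences, 21 higher and 39 lower became 140 and 5 with the study's library totals, 13 and 8 where cultures were taken to vary by 0.2 (coefficient of variation, edgeR), and 0 and 0 at 0.4 (also edgeR), and exact reads gave 24 lower. The fold of the summed miR-26 reads, 1.63, was 1.83 with TMM, 1.88 with median-of-ratios factors, 1.73 without the 5 most abundant sequences, 3.61 with the study's library totals and 1.84 with exact reads. miR-26b-5p turned to 1.02 with median-of-ratios factors. Unique reads leave out all but 1 miR-26a-5p read per table by their construction: the sum then had a fold of 0.894 and miR-26a-5p one of 0.347, and the ratios of ratios were 0.391 for miR-26a-5p to miR-26b-5p and 0.318 for miR-26a-5p to its 3p arms. Fisher's exact test, unadjusted p and at least 10 or 50 reads changed no miR-26 call, although at 50 reads 2 members remained to be tested. The exact share of miR-26a-5p could not be computed over unique reads, and the ratio of the mir-26a 3p arms could not be computed over exact reads.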

Other observations

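The exact share also differed between the paralogs of other families in introns of paralogous hosts. miR-103a-3p had 55.0% exact reads in spheroid and 52.7% in parental cells, and its paralog miR-107 had 8.73% in spheroid and 7.76% in parental cells. miR-33a-5p had 30.6% in spheroid and 39.7% in parental cells, and miR-33b-5p had 2.63% in spheroid and 3.33% in parental cells. miR-148b-3p had 10.9% in spheroid and 9.39% in parental cells, whereas miR-152-3p had 23.5% in spheroid and 21.7% in parental cells. miR-204-5p and miR-211-5p share reads and are not compared. These pairs were looked at after the exact share of the miR-26 sequences had been seen, and no test was run on them.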
